A study of Mus musculus with 2 samples.

Results

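Ribosomal protein genes encode the protein parts of the cytoplasmic ribosome. They were taken here as the genes whose symbol starts with Rpl or Rps and a digit, together with Rplp0, Rplp1, Rplp2 and Rpsa, without pseudogene symbols ending in -ps and without the S6 kinases. Of 32285 genes in the files, 86 met this rule. They comprised 77 of the usual cytoplasmic ribosomal proteins, 46 of the large and 31 of the small subunit, and 9 others. The others were Rpl3l, Rpl10l, Rpl22l1, Rpl36al, Rpl39l, Rpl7l1, Rps27l and Rps27rt, which are paralogs or retrogenes, and Rps19bp1, whose product binds RPS19 and is not a ribosomal protein. The 86 genes lie on 19 chromosomes of the mouse genome (GENCODE M21 on GRCm38), 4 of them on X.

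Droplet-based scRNA-seq was applied to orthotopic prostate tumors of C57BL/6 mice. The tumors, labelled WT, were grown from the mouse prostate cancer line RM-1, which the study describes as intrinsically resistant to enzalutamide (ENZ), an androgen receptor antagonist. The first library came from a vehicle-treated mouse (control) and the other from an ENZ-treated mouse, so that each condition had 1 library and 1 mouse, and treatment, mouse and library cannot be told apart. The labels give no dose, duration or age for these mice. The study reports a kit-based enrichment for immune cells, with CD45 staining, as part of the sort.

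The values are counts of unique molecular identifiers (UMIs). The control library held 170830346 UMIs in all, and the ENZ library held 162030149. Barcodes with at least 1000 UMIs and at most 20% mitochondrial UMIs numbered 12253 (control, median 6376 UMIs) and 10271 (ENZ, median 8127 UMIs), and 39 barcodes were kept in both. Cells were placed in a class when at least 3 of its 7 markers were present at the mean level over all cells or more, with a lead of 2 markers over any other class. This gated 6104 control and 5233 ENZ cells, of which 1347 and 1764 were cancer cells and 4442 and 3201 were immune cells of 7 classes. CPM stands for the UMIs of a gene scaled by the total UMIs of its class and library. In cancer cells the 7 epithelial and other cancer markers summed to 1705 CPM (control) and 1657 CPM (ENZ), led by the keratin Krt8. The 7 T cell markers summed to 4.50 and 4.25 CPM. The neutrophil markers summed to 132 and 77.2 CPM, and macrophage, B cell, dendritic cell and mast cell markers were also lower in the ENZ library. The fibroblast markers summed to 367 and 393 CPM, and NK cell, monocyte and endothelial markers were also higher there. The part of these markers in the cancer cell values was not tested. Cancer cells and each of the 7 immune classes had all 7 of their own markers in both libraries. The gate used these same markers, so that this is no separate check of the classes.

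A ribosome joins 1 large and 1 small subunit, and each holds 1 copy of nearly all of its proteins, so that cells make these proteins in matched amounts. In vertebrates their mRNAs begin with a run of pyrimidines, the 5′ terminal oligopyrimidine (TOP) motif, through which the kinase mTOR and the RNA-binding protein LARP1 set their translation together. The level of an mRNA measured by scRNA-seq is not the amount of its protein, and growing and dividing cells are known for high levels of ribosomal protein mRNA. Since each condition has 1 library, no test was made. Each 95% interval given here covers counting error only, and a gene is described as past the fold used here when its CPM differed by at least 1.2-fold between the libraries among genes with at least 50 CPM in either.

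The start sites of the members were searched for the pyrimidine run first, because it is the sequence feature by which this family is known. Windows of 30 bases, from 15 before to 15 after each start in RefSeq on GRCm38.p6, were available for 66 of the 86 members. The longest run of C or T had a median of 6 bases over 67 starts of 57 usual members and of 4 bases over 32851 starts of all 27025 genes. A run of 8 or more was present at 26 member starts (38.8%) and at 12.0% of all starts. The letters CTTTC on the forward strand, which can lie within such a run, were present at 16 member starts (23.9%) and at 4.05% of all starts, and their reverse complement at 4.48% and 3.60%. A match is a description of these letters and does not show a site in use. The windows of 8 members that the results below turn on are given 5′ to 3′, with the longest pyrimidine run in capitals.
Rps6 (chr4:86857353-86857382, minus strand): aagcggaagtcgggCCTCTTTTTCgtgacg
Rpl35 (chr2:39005117-39005146, minus strand): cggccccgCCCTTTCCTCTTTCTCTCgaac
Rplp2 (chr7:141447636-141447665, plus strand): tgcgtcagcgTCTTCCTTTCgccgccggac
Rpl15 (chr14:18270972-18271001, minus strand): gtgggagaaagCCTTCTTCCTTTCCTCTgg
Rps18 (chr17:33955651-33955680, minus strand): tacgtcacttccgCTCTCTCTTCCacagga
Rps2 (chr17:24720048-24720077, plus strand): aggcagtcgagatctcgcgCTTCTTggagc
Rps9 (chr7:3704026-3704055, plus strand): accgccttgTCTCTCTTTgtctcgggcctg
Rps27 (chr3:90213634-90213663, minus strand): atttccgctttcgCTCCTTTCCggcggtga

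Ribosomal protein UMIs made up 23.9% of all UMIs of cancer cells in the control library and 22.4% in the ENZ library. ENZ over control gave 0.933 (95% interval 0.933 to 0.934), which is -0.10 on the log2 scale. In the 7 immune classes together the share was 19.1% (control) and 15.5% (ENZ), with a ratio of 0.811 (0.810 to 0.812) or -0.30 on the log2 scale. The share was thus lower in the ENZ library in both, and the log2 ratio in immune cells was lower than that in cancer cells by 0.20. That difference was between -0.25 and -0.07 in the alternatives tried. Ribosomal protein genes held 69 of the 100 places of highest CPM in control cancer cells and 70 of the 100 in ENZ cancer cells.

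Among the immune classes, T cells, the lymphocytes of adaptive immunity, had a share of 25.1% in the control library (441 cells) and 18.9% in the ENZ library (630 cells), a ratio of 0.754. Natural killer (NK) cells, lymphocytes that kill without prior priming, had 25.2% (384 cells) and 21.2% (171 cells), a ratio of 0.843. B cells, which make antibodies, had 22.1% and 17.3% in only 49 and 26 cells. The 3 lymphocyte classes therefore had the highest immune shares in the control library, and T cells had the lowest ratio among them. Markers of other cells also moved within this gate: the 7 macrophage markers summed to 192 CPM in control T cells, led by C1qb at 60.5 CPM with none at 0, and to 41.8 CPM in ENZ T cells, led by C1qa at 9.77 CPM with 1 at 0. In B cells the 7 cancer cell markers summed to 379 and 109 CPM, led by Krt8 in both. In NK cells the cancer cell markers summed to 304 and 197 CPM and the T cell markers to 389 and 297 CPM. The part of these in the shares was not tested.

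Macrophages, the resident phagocytes of the tumor, had 19.2% in the control library (1261 cells) and 14.3% in the ENZ library (671 cells), a ratio of 0.746. Which immune class had the lowest ratio turned with the alternative, being macrophages, T cells or neutrophils. Monocytes, their circulating precursors, had 18.6% and 14.7%, a ratio of 0.790. Dendritic cells, which present antigen to T cells, had 19.9% (134 cells) and 17.4% (90 cells), a ratio of 0.873. Neutrophils, short-lived granulocytes, had the lowest shares, 7.05% (1148 cells) and 5.48% (399 cells), a ratio of 0.778. The medians over neutrophils were 3.89% and 3.68%, a log2 ratio of -0.08 against -0.36 for the summed UMIs. The 7 neutrophil markers, none at 0, summed to 740 CPM in control macrophages, led by S100a9 at 337 CPM, and to 386 CPM in ENZ macrophages, led by Mmp9 at 163 CPM. In monocytes they summed to 255 and 501 CPM, and were thus higher in the ENZ library there, and in dendritic cells to 174 and 49.8 CPM. The macrophage markers in dendritic cells summed to 94.5 and 26.8 CPM, and the cancer cell markers to 182 and 121 CPM. The macrophage markers summed to 277 and 128 CPM in neutrophils. The part of these markers in the shares was not tested. In the control library the order from the highest share was NK cells, T cells, cancer cells, B cells, dendritic cells, macrophages, monocytes and neutrophils, and in the ENZ library cancer cells stood first, followed by NK cells, T cells, dendritic cells, B cells, monocytes, macrophages and neutrophils. With 1 library each, the spread between mice behind this order is unknown, and neighbours such as NK and T cells in the control library differed by less than 1 percentage point.

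**Figure D1:**
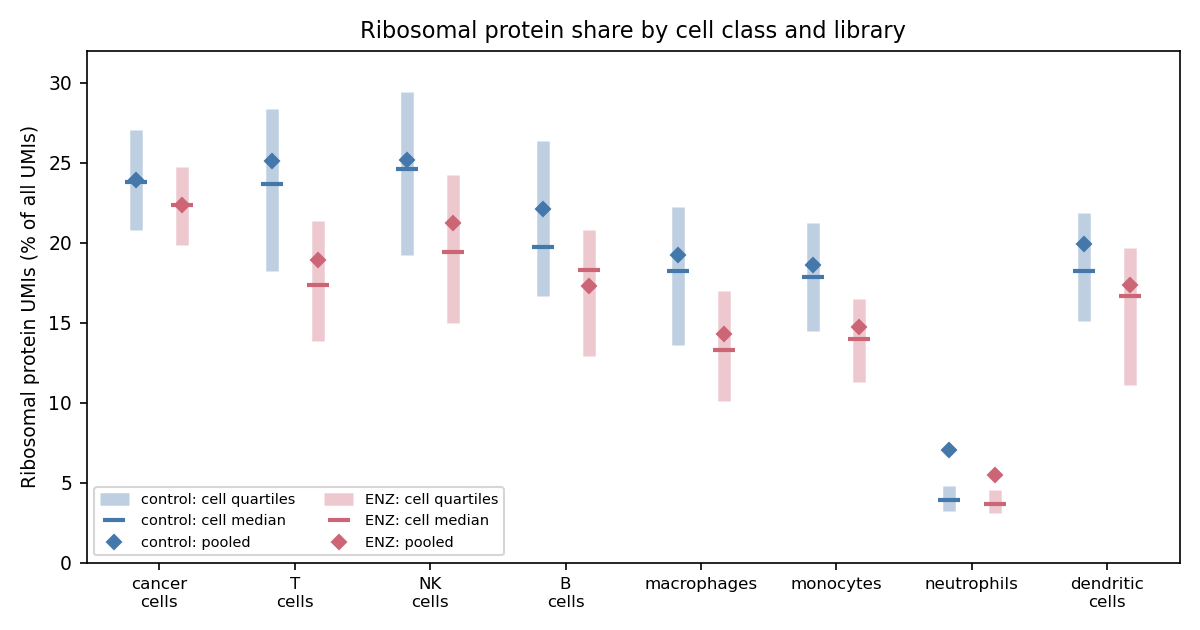
Share of all UMIs that fell in the 86 ribosomal protein genes (y axis, %) for 8 cell classes (x axis) in the control (blue) and ENZ (red) libraries. Diamonds are the share of the summed UMIs, short lines the median over cells and bars the quartiles over cells, which are not replicates. In each class the diamond of the ENZ library lies below that of the control library, and neutrophils lie lowest in both.

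Several other measures moved with the share. UMIs of 10 rRNA-like genes, a list headed by Gm42418 and AY036118, which overlap ribosomal RNA sequence, made up 1.37% of UMIs in control and 3.62% in ENZ cancer cells, and 4.27% and 10.0% in immune cells. The list also holds protein-coding genes, among them Lars2, Cmss1, Cdk8, Filip1l and Gphn, and leaving it out of a total leaves these out too. The share of the 10 genes was therefore higher in the ENZ library where the ribosomal protein share was lower. The mitochondrial share was 3.21% and 3.17% in cancer cells, 2.70% and 2.27% in immune cells and 2.80% and 2.17% in T cells. The level of the nuclear RNA Malat1 was 8109 CPM (control) and 9957 CPM (ENZ) in cancer cells and 7908 and 10176 CPM in NK cells, but 13413 and 13427 CPM in the immune classes together. Neat1, the other gene of the nuclear RNA list, had 322 and 246 CPM in cancer cells. With mitochondrial and rRNA-like UMIs left out of the total, the share was 25.1% and 24.0% in cancer cells (ratio 0.956, log2 ratio -0.07) and 20.6% and 17.7% in immune cells (ratio 0.860, log2 ratio -0.22). Fewer ribosomal protein molecules in a cell and more of other molecules counted with them cannot be told apart from shares. Barcodes with 10 to 100 UMIs, which hold mostly free RNA, had shares of 19.7% (control) and 17.7% (ENZ), and the part of free RNA beyond its subtraction was not tested. Counting each immune cell equally, in place of each UMI, gave a log2 ratio of -0.18. The mix of this pool differed between the libraries. Neutrophils, with the lowest shares, were 1148 of 4442 control and 399 of 3201 ENZ immune cells. With each cell counted equally, the log2 ratio was -0.42 in T cells, -0.41 in macrophages and -0.16 in neutrophils. For neutrophils, whose median was 1991 UMIs (control) and 2068 UMIs (ENZ), the log2 ratio of -0.36 ranged from -0.81 with at least 2000 UMIs per cell to -0.08 with cells matched on their number of UMIs.

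The share rose with the depth of the cell in both libraries in T cells, NK cells, macrophages, monocytes and dendritic cells, and varied little in cancer cells. Among control T cells it was 21.3% in the tercile of cells with the fewest UMIs and 26.2% in the tercile with the most, and among ENZ T cells it was 15.3% and 20.8%. Control macrophages had 16.1% and 19.8%, and ENZ macrophages had 12.1% and 14.7%. Control NK cells had 20.1% and 25.9%, and ENZ NK cells had 16.2% and 22.5%. Monocytes had 16.0% and 19.6% in the control and 12.8% and 15.8% in the ENZ library. Dendritic cells had 16.3% and 21.2% in the control and 12.5% and 19.0% in the ENZ library. In cancer cells the shallowest and the deepest tercile had 24.3% and 23.6% in the control library and 22.1% and 22.2% in the ENZ library. Within each depth tercile the ENZ value lay below the control value in cancer cells, T cells and macrophages. In neutrophils the share was 9.65% in the deepest tercile of control cells and 7.08% in that of ENZ cells, but 4.25% and 4.33% in the shallowest.

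The 2 subunits differed little from each other. Large subunit genes had 1.30 UMIs for each small subunit UMI in control and 1.31 in ENZ cancer cells, and 1.24 and 1.22 in immune cells. The ratio of ENZ to control in cancer cells was 0.936 for the large and 0.931 for the small subunit, and in immune cells 0.805 and 0.818. From cell to cell the shares of the subunits moved together. With each cell thinned to 5000 UMIs, Pearson's r between them was 0.928 over 1315 control and 0.927 over 1731 ENZ cancer cells, 0.958 over 156 and 0.962 over 255 T cells, and 0.970 over 861 and 0.966 over 399 macrophages. These cells share a library, and the coefficients are descriptions. The share itself ranged among the thinned cancer cells from 16.7% at the 5th to 32.4% at the 95th percentile in the control library and from 15.3% to 29.1% in the ENZ library. Its r with the share of rRNA-like genes was -0.22 and -0.32 in cancer cells and -0.40 and -0.47 in T cells.

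In cancer cells, 83 of the 86 genes had at least 50 CPM in either library, a filter that a gene could pass through 1 library alone. Of these, 4 were at least 1.2-fold lower in the ENZ library, where 6.34% of the 3612 genes tested were, and none was 1.2-fold higher, where 11.4% of all genes were. Their median log2 ratio was -0.10 against 0.05 for all 3612 genes. The interval of the ratio lay below 1 for 69 of the 83 and above 1 for 10, compared with 33.6% and 48.6% of all genes. The family as a whole was thus shifted by a small amount in cancer cells, with few members past the fold. With 1 more marker required, where the share had a log2 ratio of -0.06, or without mitochondrial and rRNA-like UMIs, none was past it.

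The lowest of them was Rps2, which encodes a small subunit protein near the mRNA entry site and lies on chromosome 17 from 24718116 to 24721929. It had 5695 CPM in cancer cells of the control library against 4664 CPM with ENZ, the ratio being 0.819 (0.814 to 0.824). Rpsa, on chromosome 9 from 120127689 to 120132369, encodes a small subunit protein also known as the laminin receptor. Its level was 3678 CPM in cancer cells of the control library against 3054 CPM with ENZ, the ratio being 0.830 (0.824 to 0.836). Rpl22l1, a paralog of Rpl22 on chromosome 3 from 28805436 to 28807424, had 438 CPM and 363 CPM, a ratio of 0.828 (0.811 to 0.846). Rpl9, a large subunit gene on chromosome 5 from 65388364 to 65391444, had 2568 and 2139 CPM, a ratio of 0.833 (0.826 to 0.840). These were the 4 genes past the fold. Rpl15, on chromosome 14 from 18267823 to 18271391, followed with 2890 and 2416 CPM, a ratio of 0.836 (0.829 to 0.843), which lay just inside it.

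At the other end was Rpl35, a large subunit protein beside the exit of the peptide tunnel, on chromosome 2 from 39001580 to 39005624. It had 2203 CPM in cancer cells of the control library against 2478 CPM with ENZ, the ratio being 1.12 (1.11 to 1.13). Rplp2, 1 of the acidic stalk proteins that recruit elongation factors, had 2289 and 2396 CPM, a ratio of 1.05 (1.04 to 1.06). Rpl23a, whose protein lies beside that of Rpl35 at the tunnel exit, had 2827 and 2939 CPM, a ratio of 1.04 (1.03 to 1.05). Rpl4, whose protein reaches into the tunnel, had 1217 and 1259 CPM, a ratio of 1.03, and the X-linked Rpl36a had 1177 and 1216 CPM, a ratio of 1.03. These were the 5 highest ratios, and Rpl35 stood apart from the other 4. Scaled by the median ratio of all genes, 3 of the 83 stayed above 0 on the log2 scale, Rpl35 at 0.12, Rplp2 at 0.01 and Rpl23a at 0.00, while Rpl4 and Rpl36a went below 0.

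The 5 ribosomal protein genes of highest CPM in control cancer cells were all lower in the ENZ library. Rpl13 had 6402 CPM with vehicle and 5912 CPM with ENZ (ratio 0.923), and Rps18, at the head of the small subunit, had 6176 and 5373 CPM (0.870). Rps27a, which is made as a fusion with ubiquitin, had 6097 and 5554 CPM (0.911). Rps2 is given above, and Rpl19 had 5677 and 5089 CPM (0.896). A UMI counts 1 molecule, so these levels were not divided by transcript length. Of the stalk proteins, Rplp0, the base of the stalk, had 4055 and 3528 CPM (0.870), and Rplp1 had 4388 and 4158 CPM (0.948), beside the higher value of Rplp2. Rps6, the substrate of S6 kinase downstream of mTOR, had 2154 and 2055 CPM (0.954). The 3 stalk genes therefore did not share a direction in cancer cells.

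In the immune classes together, 48 of 82 genes were at least 1.2-fold lower in the ENZ library, where 17.8% of all 3531 genes were, and none was 1.2-fold higher, where 25.2% of all genes were. Their median log2 ratio was -0.30 against 0.07 for all genes. The interval lay below 1 for 80 of the 82 and above 1 for 1, compared with 33.3% and 47.6% of all genes. The lowest was Rps18 with 3647 CPM in immune cells of the control library against 2418 CPM with ENZ, the ratio being 0.663 (0.656 to 0.671). Rpl15 had 1999 and 1338 CPM (0.670), Rps2 had 2942 and 2015 CPM (0.685), Rpl14, of the large subunit, had 1673 and 1147 CPM (0.686), and Rpl29, also of the large subunit, had 1302 and 906 CPM (0.696). By ratio, Rps2 and Rpl15 were thus among the 5 lowest in both groups of cells. Rpl9, with 2476 and 1725 CPM in immune cells, followed Rpl29 by ratio. By the interval bound nearer to 1 it came before Rpl29 (0.706 against 0.709). Without mitochondrial and rRNA-like UMIs in the total, 30 of the 82 genes were past the fold, all lower in the ENZ library. Of all genes, 1861 of 3815 were then past it in either direction.

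Rplp2 was the gene whose interval lay above 1 in immune cells, with 2120 CPM with vehicle and 2157 CPM with ENZ, a ratio of 1.017 (1.004 to 1.031). Rps26, which contacts mRNA upstream of the start codon, had 1880 and 1863 CPM, and its interval (0.977 to 1.005) held 1. Rpl35 had 1412 and 1363 CPM in immune cells, a ratio of 0.965 (0.950 to 0.981), against 1.12 in cancer cells. It was 1 of 9 members, among the 82 compared, whose interval lay above 1 in cancer cells and below 1 in immune cells. This was so for 4.09% of 2520 genes, and the opposite for 2.06% of them and for no member. Scaled by the median ratio of all genes, all 82 lay below 0 on the log2 scale in immune cells, Rplp2 at -0.05, and without mitochondrial and rRNA-like UMIs 5 lay above 0, Rplp2 at 0.11, Rps26 at 0.07, Rpl23a at 0.04, Rpl35 at 0.03 and Rpl37a at 0.00. Rplp0 had 3117 and 2318 CPM (0.744) and Rplp1 had 3681 and 3157 CPM (0.858), so that Rplp2 was again the highest of the stalk genes. In the plot of the log2 ratios of cancer against immune cells, 81 of 82 genes lie below the line of equal ratios and Rps26 lies above it.

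**Figure D2:**
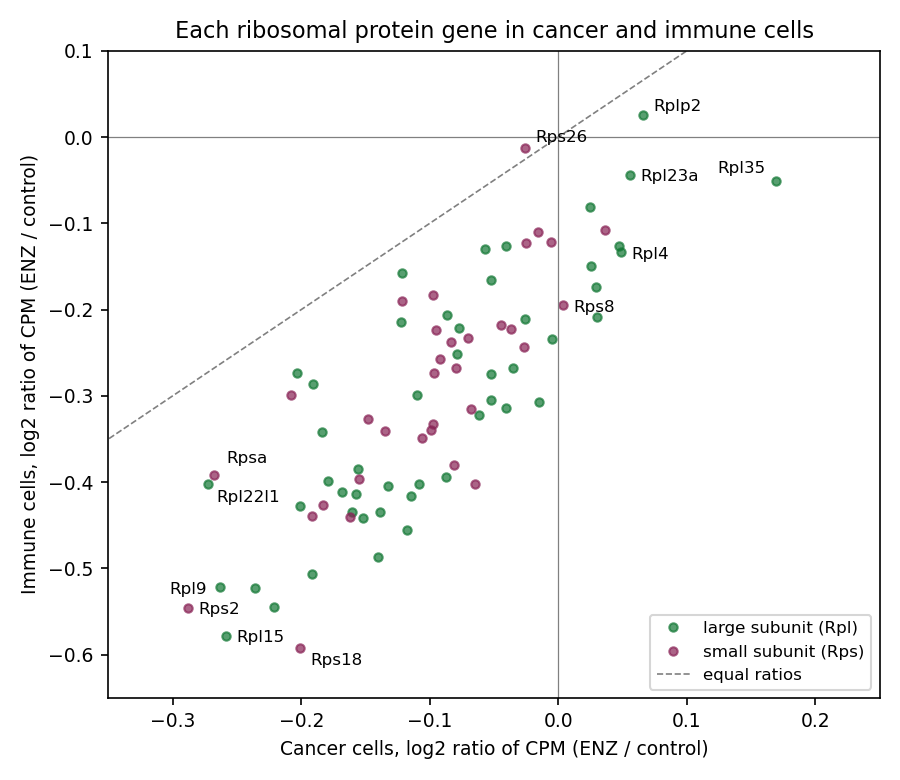
Log2 ratio of CPM, ENZ over control, of each ribosomal protein gene with at least 50 CPM in cancer cells (x axis) and in the immune classes together (y axis); green points are large and purple points small subunit genes, and the dashed line marks equal ratios. Rps2, Rpl9, Rpl15 and Rps18 lie at the lower left and Rplp2 lies above 0 on both axes, though not on the immune axis when scaled by the median ratio of all genes. The cancer and immune cells of a library share its preparation.

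Class by class, the number of genes past the fold varied more than the direction. In T cells 71 of 82 genes were at least 1.2-fold lower in the ENZ library (21.1% of all genes tested there), in macrophages 59 of 82 (19.1%), in monocytes 59 of 81 (17.9%), in neutrophils 62 of 81 (25.3%), in B cells 56 of 82 (36.7%), in NK cells 36 of 82 (25.2%) and in dendritic cells 23 of 82 (23.4%). The neutrophil values come from summed UMIs, whose share lay above the upper quartile over cells (4.79% in control and 4.53% in ENZ). They therefore do not describe the typical neutrophil. The background of genes at least 1.2-fold higher was 34.5% in T cells, 34.6% in NK cells, 44.2% in B cells, 31.9% in macrophages, 23.4% in monocytes, 22.9% in neutrophils and 28.7% in dendritic cells, and of the ribosomal protein genes only Rpl4, with 847 and 1025 CPM, in B cells was past it. The median log2 ratio of the genes was -0.41 in T cells, where that of all genes was 0.12, and -0.43 in macrophages, where it was 0.11. It was -0.34 in monocytes (0.02), -0.36 in neutrophils (-0.00), -0.37 in B cells (0.18), -0.22 in NK cells (0.08) and -0.18 in dendritic cells (0.01), with the median of all genes in brackets. Rpl15 had log2 ratios of -0.67 in T cells, -0.81 in macrophages, -0.56 in monocytes and -0.65 in neutrophils, and Rps18 had -0.64, -0.78, -0.60 and -0.52. Rplp2 had -0.16, 0.00, -0.03 and -0.21 in the same classes. Of the 77 usual members, 62 were lower in the ENZ library in all 8 classes, cancer cells included, and 15 were higher in at least 1 class. All 77 reached 50 CPM in a library of every class. Over the 1534 genes that did so, 19.5% were lower in all 8 classes and 10.7% were higher in all 8, where no usual member was. The 8 comparisons share the same pair of libraries and are not independent of each other.

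**Figure D3:**
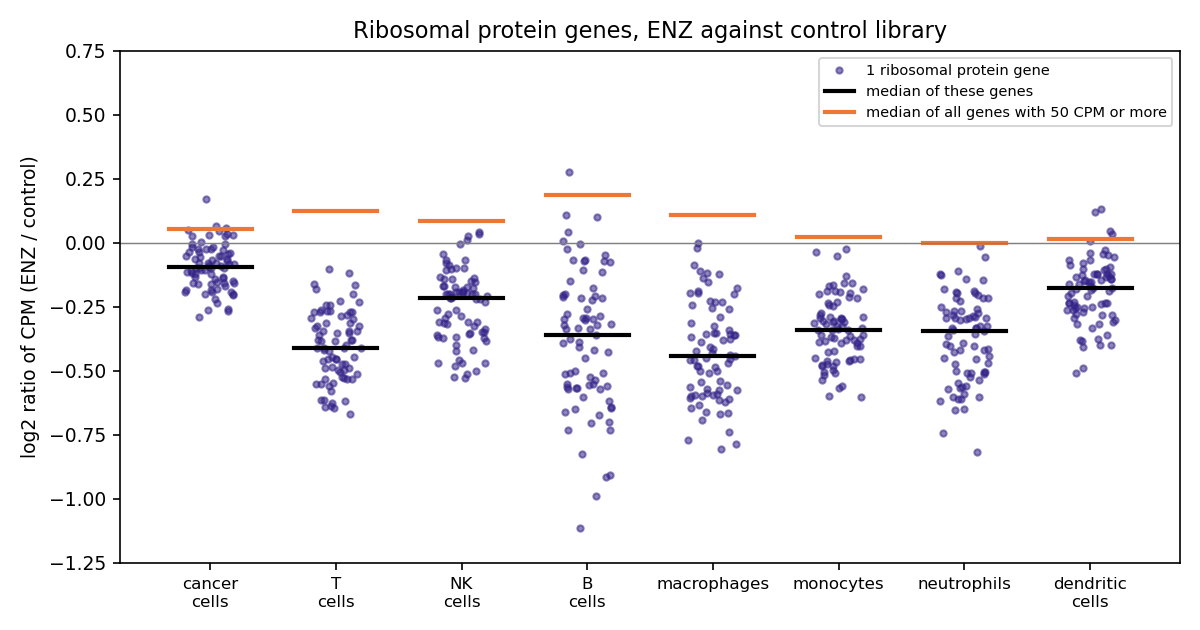
Log2 ratio of CPM, ENZ over control (y axis), of the 77 usual ribosomal protein genes (points) in 8 cell classes (x axis), with their median (black line) and the median of all genes with at least 50 CPM (orange line). The points of T cells, monocytes and neutrophils all lie below 0, those of cancer cells lie nearest to 0, and those of B cells, with 49 and 26 cells, spread most.

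The genes that the rule adds to the usual ribosomal proteins were mostly of low level. Rpl10l, a retrogene known from the testis, had 0 UMIs in cancer and immune cells of both libraries, which at 3 UMIs over the class allows up to 0.0763 CPM in control and 0.0607 CPM in ENZ cancer cells. Rpl39l, also known from the testis, had 2 UMIs in control and 0 in ENZ cancer cells. Rpl3l, the paralog of Rpl3 in striated muscle, had 13 and 10 UMIs in cancer cells, while Rpl3 itself had 2730 and 2457 CPM. Rpl36al had 640 and 622 CPM in cancer cells, Rps27l, a p53 target, had 416 and 383 CPM, Rpl7l1 had 110 and 104 CPM, Rps27rt had 86.0 and 74.4 CPM, and Rps19bp1 had 73.5 and 70.6 CPM. Of these 9 genes only Rpl22l1 was past the fold in cancer cells.

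The makeup of the ribosomal protein mRNA pool also differed between classes. As UMIs per 10000 ribosomal protein UMIs, the mean of both libraries varied between the highest and the lowest of the 8 classes by a median of 1.36-fold over the 81 genes with at least 50 CPM in every class, and by more than 2-fold for 5 of them. Rps27rt, a retrogene of Rps27 on chromosome 9, had 10.0 in neutrophils and 3.46 in cancer cells, a 2.90-fold spread. Rps27l had 23.9 in dendritic cells and 8.35 in B cells (2.86-fold). Rps9, a small subunit gene on chromosome 7 from 3703993 to 3706897, had 369 in neutrophils and 135 in cancer cells (2.73-fold). Rps27 had 248 in neutrophils and 115 in macrophages (2.16-fold), and Rps29, whose protein lies in the head of the small subunit, had 295 in macrophages and 145 in cancer cells (2.04-fold). For each of these 5, the highest and the lowest class were the same in both libraries. At the other extreme, Rpl27a varied by 1.13-fold, and Rpl18 and Rpl6 by 1.15-fold each. Over the 81 genes, 53 had the same highest and 43 the same lowest class in both libraries.

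**Figure D4:**
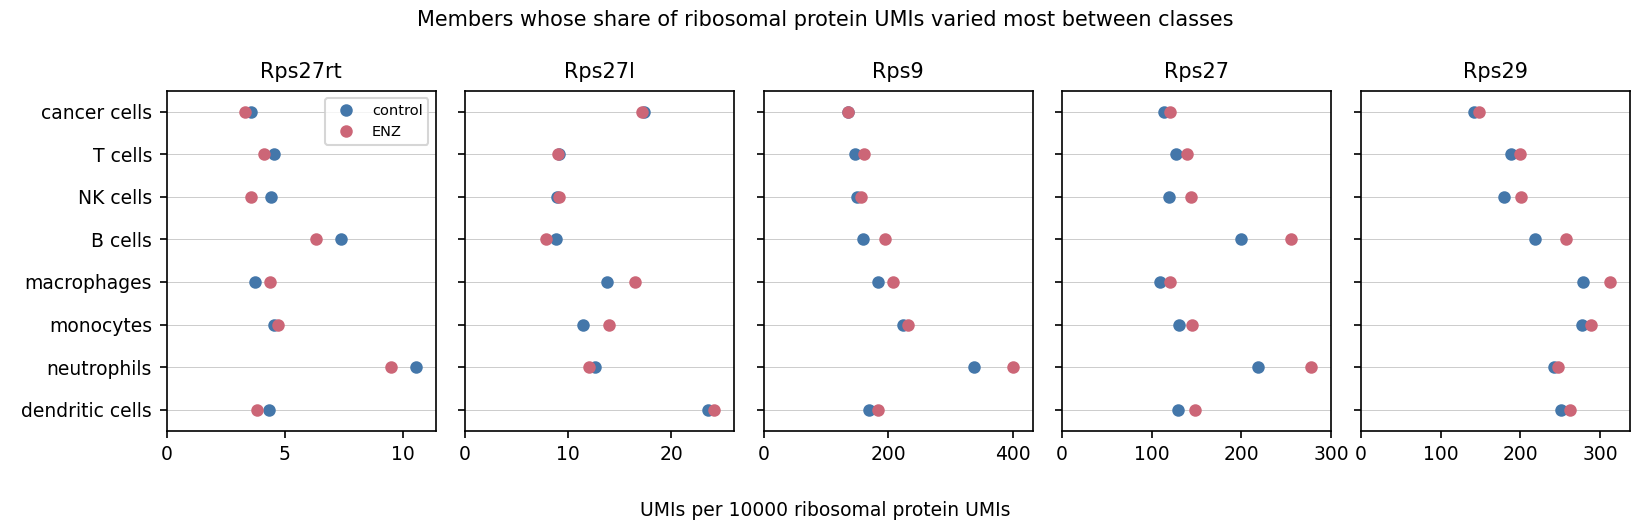
UMIs per 10000 ribosomal protein UMIs (x axes, each from 0) of the 5 genes with the widest spread, in 8 cell classes (rows) of the control (blue) and ENZ (red) libraries. Rps9 and Rps27rt lie highest in neutrophils, Rps27l in dendritic cells and Rps29 in macrophages in both libraries.

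In Rps9 the rank of the classes in the control library was neutrophils at 338, monocytes at 223, macrophages at 183, dendritic cells at 168, B cells at 160, NK cells at 150, T cells at 147 and cancer cells at 135 UMIs per 10000. In the ENZ library neutrophils had 400 and cancer cells 135, with monocytes again next to neutrophils at 231. Myeloid classes thus stood above lymphoid classes and cancer cells in Rps9, except in the ENZ library, where B cells, with 26 cells, had 194 and dendritic cells 184. In Rps27 B cells stood next to neutrophils, with 199 and 255 UMIs per 10000.

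Most members have near-identical copies in the genome, so that reads can be split between them or discarded. In GENCODE M21, 75 of the 86 had a copy in at least 1 other gene. A copy had at least 95% identity over 300 bases, or over 80% of the member's own transcript where that was shorter. The median over the members was 4 such genes and the most was 59. For 12 of the 86 members a copy was itself counted in the files. The copy of Rpl41 named Gm10076 had 1029 CPM in cancer cells of the control library against 1251 CPM with ENZ, the ratio being 1.22, whereas Rpl41 had 3260 and 2996 CPM (0.919). The copy of Rpl35 named Gm2000 had 158 and 136 CPM (0.857), against the ratio of 1.12 for Rpl35. Rpl9-ps6 had 70.1 and 57.7 CPM (0.823), near the ratio of Rpl9. The values of these genes and of Rps27 with Rps27rt are therefore uncertain as to which copy they count.

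Properties that the choice of genes did not use were set beside the ratios. Over the 77 usual members, transcripts were 345 to 3706 bases long with a median of 775. Spearman's rho between transcript length and the log2 ratio was -0.33 in cancer and -0.35 in immune cells, while Pearson's r was -0.15 and -0.18. With GC content rho was -0.27 and -0.16. These are weak descriptions across genes, which are not independent. Members with a pyrimidine run of 8 or more at a start had a median log2 ratio of -0.08 in cancer and -0.27 in immune cells (25 genes), and those with shorter runs had -0.10 and -0.31 (32 genes). Rpl15, Rpl35 and Rps18 all have long runs in the windows given above, yet Rpl35 lay at the upper and Rpl15 and Rps18 at the lower end of the ratios.

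Other genes of the ribosome and of translation were taken from lists chosen with earlier results of these data known. Fau, whose protein S30 is made as a fusion with a ubiquitin-like protein, had 2730 CPM with vehicle and 2584 CPM with ENZ in cancer cells, and 4104 and 3285 CPM in immune cells. Rack1, a scaffold on the small subunit, had 3450 and 3147 CPM in cancer cells and 2187 and 1635 CPM in immune cells. Of 15 further mRNAs known to carry a TOP motif, 1 was at least 1.2-fold lower in cancer cells and 7 in immune cells, none was higher, and the median was -0.11 and -0.26. Of all genes 6.34% were lower by this fold in cancer cells and 17.8% in immune cells, so that 1 of 15 lies near the background. The elongation factor gene Eef1a1 had 4017 and 3799 CPM in cancer cells and 3502 and 3069 CPM in immune cells. Btf3, a part of the nascent polypeptide-associated complex, was the lowest of them in cancer cells with 1080 and 861 CPM. Eef2, which drives translocation, had 687 and 786 CPM, and the poly(A)-binding protein gene Pabpc1 had 1236 and 1378 CPM, so that both were higher in the ENZ library but within the fold.

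Of 26 ribosome biogenesis genes, 15 had at least 50 CPM in cancer cells. None of the 15 was past the fold in either direction (6.34% of all genes were lower and 11.4% higher). Their median log2 ratio was 0.05, whereas the summed level of the 26 was 6051 and 5709 CPM, a log2 ratio of -0.08, so that median and sum differed in sign. Npm1, a nucleolar chaperone and the most abundant of them, had 3146 and 2663 CPM, and Ncl, the gene of nucleolin, had 880 and 955 CPM. In immune cells 2 of 8 were at least 1.2-fold lower, near the 17.8% of all genes, and the median was -0.13. Of 10 regulators of ribosomal protein mRNAs, 5 passed the filter in each, with a median of 0.15 in both. Larp1 had 180 and 205 CPM in cancer cells, Rps6kb1, which encodes an S6 kinase, had 78.7 and 87.0 CPM, and Eif4ebp1, an inhibitor of cap-dependent translation, had 260 and 222 CPM. Of 78 genes of the mitochondrial ribosome, 54 passed in cancer cells, 7 of these were at least 1.2-fold lower and none higher, with a median of -0.19. In immune cells 27 passed, 19 were lower and the median was -0.32. Of all genes, 6.34% were lower by this fold in cancer cells and 17.8% in immune cells.

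**Figure D5:**
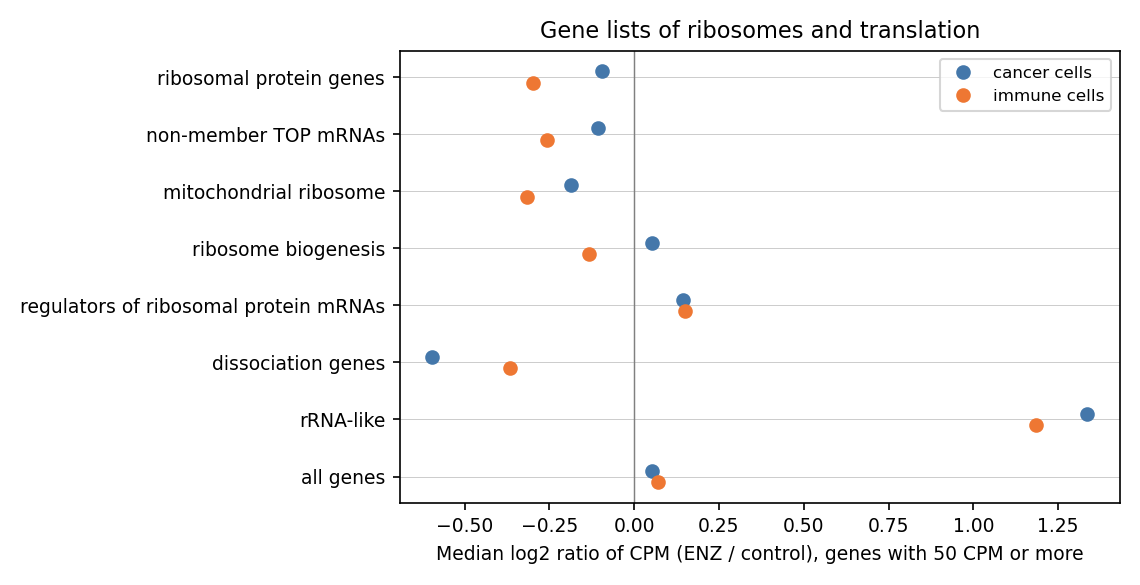
Median log2 ratio of CPM, ENZ over control (x axis), of the genes of each list with at least 50 CPM (rows), in cancer cells (blue) and immune cells (orange), with all genes at the bottom. Lists of ribosomal and TOP mRNAs lie below 0, rRNA-like genes lie at 1.34 and 1.19, and dissociation genes lie at -0.59 and -0.37.

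Genes known to respond to tissue dissociation moved with the ribosomal protein genes in direction. Of 12, 10 were at least 1.2-fold lower in cancer cells and 8 in immune cells of the ENZ library, and none was higher. Of all genes, 6.34% in cancer cells and 17.8% in immune cells were lower by this fold, and 11.4% and 25.2% were higher. The summed level of the 12 was 7532 CPM in control and 5437 CPM in ENZ cancer cells, led by Hspa8 with 1565 and 1521 CPM. Fos had 818 and 408 CPM. Of the 10 rRNA-like genes 9 were at least 1.2-fold higher in cancer cells and 7 in immune cells, beside 11.4% and 25.2% of all genes. Gm42418 had 9251 and 27130 CPM in cancer cells. The part of either list in the ribosomal protein values was not tested beyond the share without rRNA-like genes given above.

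Over the 16 combinations of 8 classes and 2 libraries, the genes outside the family whose log2 CPM was most like that of the summed ribosomal protein genes, among 1077 compared, were Naca (Pearson's r of 0.986), which belongs to the nascent polypeptide-associated complex, then Rack1, Eef1g and Eef1a1 (0.976 each) and Chchd2, of the mitochondrion (0.969). The lowest r was that of Ddx3x (-0.969), an RNA helicase, and Etf1, the translation termination factor, followed (-0.959). The 8 points of a library share its preparation, and neutrophils lie far from the other classes.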

How the data were processed

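The deposited counts are raw UMIs of each gene in every listed barcode (2438568 control, 2239744 ENZ), without cell calling, filter or normalization. The file header names Cell Ranger 7.2.0, and the submitters' processing notes name Cell Ranger 2.1.1 and mm10. The annotation and the use of intronic reads are not given in the sources used here, and the chemistry named in the labels was not used.

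From these counts, cells were filtered and gated by markers, and UMIs were summed per class and library into CPM. Ratios have exact conditional binomial, levels exact Poisson and shares Clopper-Pearson intervals, all at 95% and for counting error only. Cells with a scrublet score above 0.25 (310 and 288, of them 109 and 85 gated) were left out in an alternative. For the cluster alternative, 2000 variable genes without the members, 30 principal components, 15 neighbours and the Leiden method at a resolution of 1 were used.

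The members and lists were chosen with earlier results of these data known. A list gene and the summary of its list are not reported here. Genes were named as the 5 highest and 5 lowest ratios in cancer cells, ranked by the interval bound nearer to 1, the 5 of highest CPM, the members outside the usual set, the stalk genes and Rps6, the 5 most and 3 least variable between classes and the 5 most alike. The immune genes, Gm10076, Gm2000, Rpl9-ps6, Rpl41, Rpl3, Ddx3x and Etf1 and the single genes of other lists were picked after values were seen. The code for intervals and the fold was run on class totals simulated from the counting model that the intervals assume. In 3365 genes of simulated cancer cells, 94.6% of intervals held the true ratio, and all 200 genes changed by 1.5-fold were past the fold. This outcome is set by that model and checks the code alone. Filtering, gating and the spread between cells or mice were not simulated. Python 3.11.15, numpy 2.4.6, scipy 1.17.1, pandas 2.3.3, scanpy 1.11.5 and blastn 2.17.0 were used.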

Additional observations from a re-analysis of the deposited data

Results flagged for a closer look

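In 9 of 82 members the counting intervals lay above 1 in cancer cells and below 1 in immune cells of the same pair of libraries, as they did in 4.09% of 2520 genes that reached 50 CPM in each group of cells. The difference between these groups of cells was not tested, since each library is 1 mouse. Rpl35 had a log2 ratio of 0.17 in cancer and -0.05 in immune cells, Rpl23a 0.0559 and -0.04, Rpl4 0.0486 and -0.13, and Rpl36a 0.0470 and -0.13. The small subunit gene Rps21 had 0.0361 and -0.11. The large subunit genes Rpl31 (0.0303 and -0.21), Rpl37 (0.0290 and -0.17), Rpl38 (0.0257 and -0.15) and Rpl37a (0.0246 and -0.08) had the smallest cancer values. The immune values pool classes that did not all go 1 way. Rpl35 had 0.04 in NK and 0.13 in dendritic cells, Rpl23a 0.01 in NK cells and Rpl4 0.28 in B cells. In dendritic cells Rpl36a had 0.12, Rpl31 0.03 and Rpl37a 0.04. Rps21, Rpl37 and Rpl38 were lower in every immune class. Without mitochondrial and rRNA-like UMIs in the total, Rpl35, Rpl23a and Rpl37a were above 0 in immune cells too, at 0.03, 0.04 and 0.00, and scaled by the median ratio of all genes the 9 were below 0 in cancer cells except Rpl35 at 0.12 and Rpl23a at 0.00. Rpl36a and Rpl35 have near-identical copies that were also counted.

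Mast cells, tissue granulocytes that store histamine, had a higher summed share in the ENZ library, against a lower one in the other classes. Their ribosomal protein share was 19.2% in 25 control cells and 22.0% in 11 ENZ cells, a ratio of 1.14 (1.12 to 1.16), which was not tested. The median over cells was 14.4% and 14.7% and the upper quartile 20.3% and 18.6%, so that the typical cell differed less than the sum and the upper quartile lay the other way. Their rRNA-like share was 0.690% and 1.204%, the lowest of the classes in both libraries.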

How the results depend on the processing

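All 14 alternatives in cancer cells and all 15 in immune cells gave a ribosomal protein share lower in the ENZ library, as did the 13 for each immune class. In cancer cells the log2 ratio of -0.10 was -0.0970 with at least 500 UMIs per cell, -0.0957 with at least 2000, -0.0630 with 1 more marker required, -0.110 with Leiden clusters, -0.0655 without mitochondrial and rRNA-like UMIs, -0.110 as the mean and -0.0894 as the median of each cell's share, -0.110 in cells thinned to 1000 UMIs and -0.108 in cells matched on UMIs. In immune cells the value of -0.30 was -0.333 with at least 2000 UMIs, -0.314 with 1 more marker, -0.308 with the mitochondrial limit at 10%, -0.234 with Leiden clusters, where the cluster holding most gated monocytes (3443 cells) stayed unnamed, -0.301 with that cluster counted as immune, -0.321 without cells of high scrublet score, -0.304 after subtraction of free RNA, -0.217 without mitochondrial and rRNA-like UMIs, -0.180 as the mean and -0.241 as the median over cells, -0.180 in thinned and -0.278 in matched cells, and -0.333 as the mean of the 7 classes. Clusters made with an approximate search for neighbours, which could not be remade exactly, had other sizes and names. The Leiden values thus depend on the clusters made, and no value of the approximate search is given here. The medians over cells, the mean of the classes and the count of the unnamed cluster as immune were added after the data had been seen. The count of 4 members past 1.2-fold in cancer cells was 0 with 1 more marker, 0 without mitochondrial and rRNA-like UMIs and 7 with median-of-ratios scaling. Over all genes, in either direction, it was 640 of 3612, and 496 of 3634, 816 of 3761 and 618 of 3612 in these settings. The count of 48 of 82 in immune cells was 30 of 82 without those UMIs and 32 of 81 with Leiden clusters. It was 47 of 81 with the unnamed cluster counted as immune, and 60 of 82 with median-of-ratios scaling. Over all genes it was 1520 of 3531, and 1861 of 3815, 1519 of 3562, 1420 of 3440 and 1481 of 3531 in these settings. All members past the fold were lower in the ENZ library. Apart from the settings named by what they leave out, the cause was not tested.

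No paired analysis was possible because a lone library stands for each treatment. That limits each value here, since the spread between mice is unknown and the intervals cover counting error only. Depth limits neutrophils most, whose values ran from -0.81 with at least 2000 UMIs to -0.08 in cells matched on UMIs. In B cells, with 49 and 26 cells, the values ran from -0.36 to -0.11, the latter as the median over cells. In dendritic cells, with -0.20 in the main setting, they ran from -0.27 with Leiden clusters to -0.13 as the median over cells. Members below 50 CPM were left out of the counts of ratios.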

Other observations

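The ribosomal protein share was also lower in the ENZ library in stromal classes. Fibroblasts, which make the tumor matrix, had 20.4% in 249 control cells and 18.1% in 238 ENZ cells, a ratio of 0.884 (0.881 to 0.886). Endothelial cells, which line the vessels, had 17.9% and 16.4% in 41 and 19 cells, a ratio of 0.916 (0.908 to 0.923). The share in cells that no gate took was 22.9% and 20.8%.

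Within classes the share varied by subset. T cells with a Cd4 UMI and none of Cd8a or Cd8b1 had 25.9% with vehicle and 19.3% with ENZ (83 and 207 cells, ratio 0.745). T cells with a Cd8a or Cd8b1 UMI and none of Cd4 had 24.1% and 19.9% (81 and 147 cells, ratio 0.826). Macrophages with a UMI of Mmp12, a macrophage elastase, had 19.9% and 15.2% (595 and 232 cells), and those without had 18.3% and 13.8% (666 and 439 cells). The median depth was 8587 UMIs in control and 7040 in ENZ macrophages with an Mmp12 UMI and 5872 and 5775 in those without. Within terciles of depth the share was higher with an Mmp12 UMI in all 3 of the control library and in the upper 2 of the ENZ library, while in the lowest ENZ tercile it was 11.6% with and 12.3% without. Cancer cells with a UMI of Mki67, a marker of dividing cells, had 23.3% and 21.6%, and those without had 24.9% and 23.2%. Cells with an Mki67 UMI had a median of 31609 UMIs in the control library against 19899 in those without. Within each tercile of depth the share was lower with an Mki67 UMI, by 0.964 to 2.36 percentage points in the control library and by 1.78 to 1.91 in the ENZ library. The ratio of ENZ to control was 0.926 with and 0.932 without an Mki67 UMI.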
